A study of Mus musculus with 12 samples.

Results

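The comparison described here set 3 mutant against 3 wild type libraries of male mouse urogenital sinus at stage E18.5, late in gestation, 6 of the 12 libraries of the study, chosen by the genotype and sex in their labels. The mutant males are labelled Inv(Itga6-nsi)d11lac, a name that places the ends of an inversion at Itga6 and at a point called nsi and adds an allele called d11lac. The wild type males were of the same stage and tissue. The other 6 libraries, 3 mutant and 3 wild type females, shared the fit. They entered the scaling, the choice of genes tested, the mean of the 12 and the spread behind the p-values of genes. Their own values served for the GC trend in females and the contrast between sexes. The labels described no treatment, did not give the position of nsi or the nature of d11lac, did not say whether the mutants were homozygous, and did not tie a library to an embryo, so p-values measure the spread between libraries. The dissection kept the proximal urethra and removed the bladder.

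The urogenital sinus is the endodermal tube below the bladder, wrapped in mesenchyme, from which the urethra and, in males, the prostate form. The HoxD cluster is a row of homeobox genes whose members at one end, Hoxd10 to Hoxd13, pattern the limbs, genitalia and the terminal gut and urogenital tract. Their transcription is controlled from large regulatory domains on either side of the cluster, so an inversion with an end outside the cluster can move a gene relative to its enhancers. The GC content of a transcript, the share of G and C among its bases, affects how efficiently it is amplified and sequenced in library preparation, and it also differs between classes of genes.

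Values are FPKM, fragments scaled to gene length and library size, after scaling of every library by its median ratio to the mean of the 12. Relative sequencing depth, estimated from the steps between low values and set to 1 in the deepest of the 12 libraries, was 0.835 to 0.883 in the wild type males and 0.651 to 0.717 in the mutant males, so the genotypes did not overlap in depth. The small nuclear RNA gene Rn7sk made up 12.2% to 14.9% of the FPKM sum in wild type male 1 and mutant males 1 and 3 and was listed at 0 in the others. All 6 libraries matched the male label. Xist, which silences an X chromosome in females, stood at 0 to 0.241 scaled FPKM, and the Y-linked gene Ddx3y at 8.08 to 16.7.

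Across the 13904 genes tested, 2820 (20.3%) were called, meaning a limma Benjamini-Hochberg adjusted p under 0.05. Of these, 1202 (8.64% of the genes tested) were higher and 1618 (11.6%) were lower in the mutant males, with 31 and 101 of them by at least 2-fold. Changes were mostly small, since 5% of genes lay below -0.60 and 5% above 0.52 on the log2 scale. Scaling moved the balance of the directions. Higher genes made up 42.6% of the calls in the main scaling, 18.2% with scaling to the library sum (444 higher and 1992 lower) and 8.96% with the FPKM as deposited (121 higher and 1229 lower). The median of all genes was -0.09 and -0.14 in these last scalings and 0 in the main one, so directions of small changes are relative to that median. Counts of lists and families under the other scalings, given below, are read beside these counts of all genes, not beside the shares of the main scaling. The number called also changed when single libraries were left out, to 1240 without mutant male 1, 1247 without wild type male 1, 1649 without mutant male 2 and 1817 without wild type male 2. It was 2348 without wild type male 3 and 2451 without mutant male 3. Each removal also leaves fewer libraries in the fit.

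The direction of change followed the base composition of the transcripts. Genes with transcripts poor in G and C were lower in the mutant males and genes with transcripts rich in them were higher. When the 13735 genes with a known GC content were cut into 10 bins of equal size, the median log2 difference ran from -0.41 in the lowest bin (31.2% to 43.1% GC) through 0.00 in the fifth to 0.23 in the highest (58.3% to 76.3% GC). In the lowest bin 656 of 1374 genes (47.7%) were called lower and 2 higher. In the highest bin 314 of 1374 (22.9%) were called higher and 5 lower. The share of genes with a positive difference rose in every step, from 6.77% to 85.4%.

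**Figure D1:**
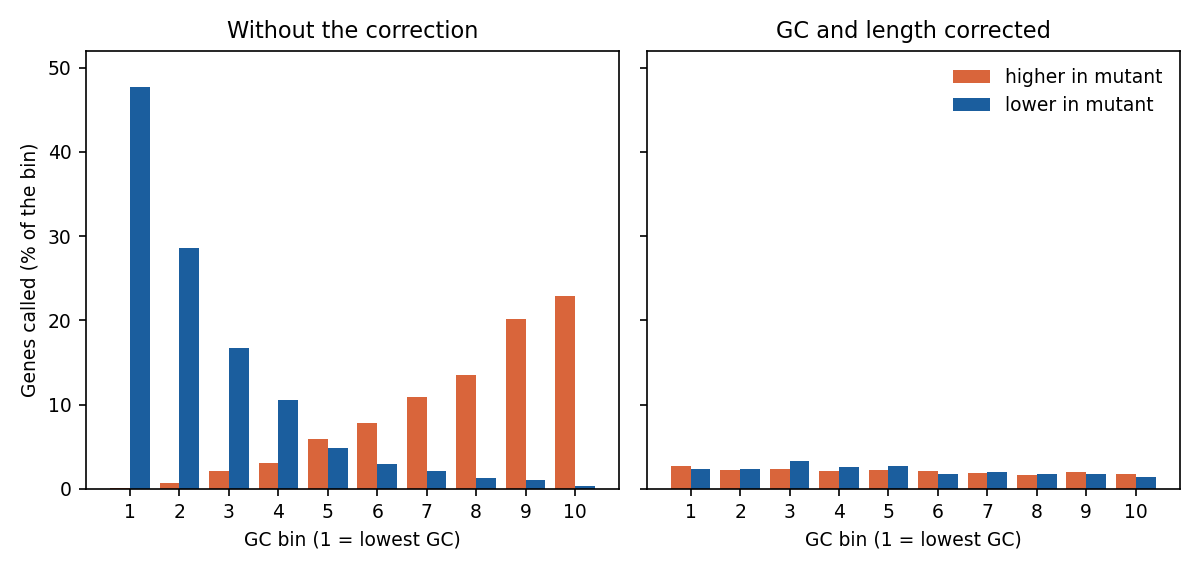
Percent of genes called higher (orange) or lower (blue) in mutant than in wild type males in each of 10 bins of transcript GC content, without (left) and with (right) the GC and length correction, on 1 scale. Without it the lower calls fall from 47.7% in bin 1 to 0.364% in bin 10 while the higher calls climb from 0.146% to 22.9%, and with it every bar lies between 1.46% and 3.35%.

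The few calls against this direction were chosen here after their values were seen. In the lowest bin the 2 higher genes were Hnrnpa2b1, an RNA-binding protein gene, at 0.36, and Eif5b, a translation initiation factor gene, at 0.39. In the highest bin the 5 lower genes were the small RNA gene model Gm24105 at -1.72, the histone gene H2bc1 at -1.63, Fitm1, a lipid droplet gene of muscle, at -0.80, the small heat shock gene Hspb2 at -0.60 and the Rab GTPase gene Rab40b at -0.44. H2bc1 was at 0.674 to 1.56 in the wild type males (scaled FPKM) and listed at 0 in all 3 mutant males. All 7 were also called in the same direction after the correction described below.

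The trend could be read in each library. The slope of a library's log2 deviation from the mean of the 12 libraries, per 10 percentage points of GC, was -0.23, -0.16 and -0.25 in wild type males 1, 2 and 3. It was 0.19, 0.14 and 0.05 in mutant males 1, 2 and 3. The sign was negative in all 3 wild type and positive in all 3 mutant libraries, with mutant male 3 nearest to 0. The means were -0.21 ± 0.05 and 0.13 ± 0.07 (SD, n = 3 each), a difference of 0.34. The two-sided exact permutation p was 0.1, the smallest that 3 against 3 libraries can give. Leaving out any 1 male library kept the difference between 0.31 and 0.37.

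The extremes of GC content showed where mutant male 3 stood apart. In the lowest bin the median deviations were 0.28, 0.20 and 0.31 in wild type males 1 to 3, and -0.23, -0.20 and 0.01 in mutant males 1 to 3. Mutant male 3 was thus close to the 12-library mean there and still below each wild type library. In the highest bin the values were -0.16, -0.10 and -0.17 in the wild type males and 0.12, 0.07 and 0.11 in the mutant males, where mutant male 3 lay among its group. The group differences were -0.41 and 0.24 for the 2 bins (exact permutation p = 0.1 for both).

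**Figure D2:**
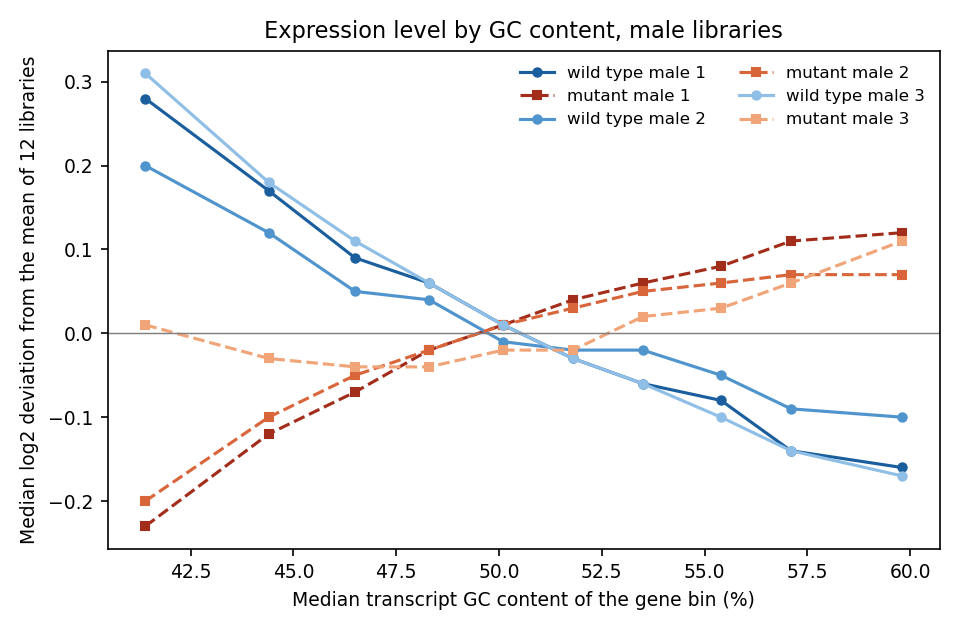
Median log2 deviation from the mean of 12 libraries (y axis) in each of 10 bins of genes, placed at its median transcript GC content in percent (x axis), for 3 wild type (blue, solid) and 3 mutant (red, dashed) male libraries. Wild type lines descend from between 0.20 and 0.31 to between -0.17 and -0.10, mutant males 1 and 2 climb from -0.23 and -0.20 to 0.12 and 0.07, and mutant male 3 runs flat at low GC and reaches 0.11.

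Slopes between pairs of libraries are differences of the library slopes above, so they restate that separation and add no further support. The 9 pairs of a mutant with a wild type male had slopes of 0.21 to 0.43 per 10 points of GC, and the 6 pairs within a genotype had -0.13 to 0.07. The lowest value between genotypes, 0.21, was for mutant male 3 against wild type male 2, and the lowest within a genotype, -0.13, for mutant male 3 against mutant male 1. The same trend was present in the females, with slopes of -0.21 to -0.15 in wild type and 0.26 to 0.27 in mutant females, a difference of 0.44. Depth moved with genotype as given above, and the part of depth, of RNA composition or of the genotype in the trend was not tested.

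Regions of the transcript differed in how closely their composition followed the change. Across genes, which are not independent replicates, Spearman's correlation of the male log2 difference was 0.58 with GC of the whole transcript (n = 13735), 0.55 with the coding sequence, 0.51 with the 3 prime UTR, 0.46 with the third codon position and 0.11 with the 5 prime UTR. It was 0.03 with transcript length, 0.10 with the number of exons and 0.03 with mean level. Genes low in both coding and 3 prime UTR GC had a median of -0.21 (4896 genes), and genes high in both had 0.16 (4895 genes). The 1541 genes with low coding and high 3 prime UTR GC stood at 0.00 and the 1541 genes of the opposite kind at 0.01. Where the 2 regions differed, the medians thus lay near the median of all genes.

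The trend did not belong to one class of transcript. Its slope was 0.33, 0.35 and 0.38 in the lowest, middle and highest parts of transcript length and 0.32, 0.35 and 0.35 in those of mean level. It was 0.33 for 13029 protein-coding genes, 0.21 for 392 long non-coding RNA genes, 0.30 for chromosome 2, which carries HoxD, and 0.43 for chromosome X. These differences between classes were not tested.

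Coding sequence from 3 genes shows what the extremes look like. Each was called only without the correction, and the stretches, 90 bases of the GENCODE M21 transcript with GC content closest to that of the gene, have G and C in capitals. Aspn and Depdc1a, from the lowest bin, were lower in the mutant males, and Phospho1, from the highest, was higher.
Aspn: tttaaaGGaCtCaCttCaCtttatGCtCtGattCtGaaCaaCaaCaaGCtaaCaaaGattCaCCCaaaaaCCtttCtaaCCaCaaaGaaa
Depdc1a: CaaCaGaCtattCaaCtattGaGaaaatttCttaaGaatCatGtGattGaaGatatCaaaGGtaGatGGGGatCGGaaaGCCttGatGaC
Phospho1: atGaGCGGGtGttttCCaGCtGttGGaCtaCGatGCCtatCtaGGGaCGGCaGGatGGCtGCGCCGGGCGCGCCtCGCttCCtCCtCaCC
The printed stretches hold 34.4%, 35.6% and 63.3% G and C in this order, against 34.3%, 35.8% and 63.5% in the whole transcripts. They run over codons 115 to 144 of Aspn, 70 to 99 of Depdc1a and 1 to 30 of Phospho1.

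Aspn, a small leucine-rich proteoglycan of the extracellular matrix, was at 43.4, 49.6 and 32.3 in wild type males 1 to 3 (scaled FPKM) and at 11.6, 15.5 and 23.2 in mutant males 1 to 3. The groups did not overlap, and mutant male 3 was the highest mutant. Its log2 difference was -1.33 (SE 0.27, limma adjusted p = 0.00768) and became -0.46 (SE 0.21, adjusted p = 0.217) with the correction. Depdc1a, a gene of dividing cells, was at 2.96, 2.55 and 2.97 in the wild type and at 0.401, 0.598 and 2.27 in the mutant males. The fall of Depdc1a was thus carried by mutant males 1 and 2. It moved from -1.25 (limma adjusted p = 0.0206) to -0.51 (adjusted p = 0.191) with the correction, and the uncorrected call was lost without mutant male 1, mutant male 2 or wild type male 1 (adjusted p up to 0.079).

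At the other end, Phospho1, a phosphatase of mineralising cartilage and bone, was at 1.31, 0.881 and 2.04 scaled FPKM in the wild type and at 2.77, 2.87 and 3.88 in the mutant males. The groups were separate, with wild type male 3 the highest wild type. Its log2 difference of 0.98 (limma adjusted p = 0.0246) became 0.70 with the correction (adjusted p = 0.15). The uncorrected call was lost without any 1 of mutant males 1 to 3 or wild type males 1 and 2 (adjusted p up to 0.0871). In all, 623 genes of the lowest and 289 of the highest bin were called without the correction and not with it.

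The correction subtracted from each library a smooth curve of its deviations on GC content and transcript length. It left 595 of 13735 genes called (4.33%), 290 higher (2.11%) and 305 lower (2.22%), with 22 and 37 by at least 2-fold. The GC bins then held similar shares, 1.67% to 2.69% higher and 1.46% to 3.35% lower. Of the 2794 calls among genes with a GC value 487 were called in both fits, which is 17.4% of the uncorrected and 81.8% of the corrected calls, and 0 had opposite signs. A further 165 uncorrected calls changed sign with the correction without being called again. Median GC was 56.1% for genes called higher and 44% for genes called lower before the correction, and 49.9% and 49.4% after it, against 50.9% for all genes. The corrected count fell to 60 without mutant male 1, 77 without wild type male 2, 85 without wild type male 1, 154 without mutant male 2 and 385 without mutant male 3, and was 580 without wild type male 3. A curve fitted this way also removes any difference between genotypes that itself follows GC content, so both fits are given below.

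The HoxD genes had the largest changes among the posterior members, and these differed little between the fits. Of 14 genes of the cluster and its edges, 11 passed the filter, and Hoxd1, Hoxd3 and the antisense RNA Haglr did not. Of the 11, 1 was higher and 4 were lower without the correction, and 1 and 3 with it, beside the 20.3% and 4.33% of all genes called. Medians over the 11 were -0.18 and -0.10, against 0 for all genes.

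Hoxd13, the most posterior gene of the cluster (chromosome 2, 74498654 to 74501943, mm39), was at 17.3, 15.1 and 18.8 in wild type males 1 to 3 (scaled FPKM) and at 4.02, 4.06 and 6.23 in mutant males 1 to 3. Hoxd12, its neighbour, was at 7.9, 7.39 and 9.44 against 1.68, 1.95 and 1.26. In both genes each mutant library was under every wild type library by a wide margin. Log2 differences were -1.76 (SE 0.20, limma adjusted p = 0.00132) for Hoxd13 and -2.05 (SE 0.22, adjusted p = 0.0013) for Hoxd12, and -1.69 and -2.19 with the correction (adjusted p = 0.00237 and 0.00142). Both calls held in both fits without any 1 male library.

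Hoxd11, the next gene of the row, rose, from 2.58, 2.77 and 3.14 scaled FPKM to 6.12, 7.17 and 8.83. The name of the mutant allele includes d11lac, and the table does not tell whether reads over Hoxd11 come from an altered allele. Hoxd10 fell, from 4.07, 3.74 and 4.26 to 2, 2.04 and 2.73. Neither gene had overlapping groups. Their log2 differences of 1.23 and -0.72 (limma adjusted p = 0.00889 and 0.00708) became 1.05 and -0.56 with the correction (adjusted p = 0.0474 and 0.0392). The corrected call of Hoxd11 was lost without any 1 male library (adjusted p up to 0.166) and that of Hoxd10 without any 1 male library except mutant male 3 (up to 0.146).

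The remaining homeobox genes of the cluster did not pass in either fit. Evx2, the homeobox gene beside Hoxd13, was at 1.47, 1.41 and 1.77 in the wild type and 2.17, 3.34 and 3.35 in the mutant males. Its groups did not overlap, with a log2 difference of 0.74 (limma adjusted p = 0.0505) and of 0.43 after the correction (adjusted p = 0.319). Hoxd9 and Hoxd8 had overlapping groups and values of -0.27 and -0.09, which were -0.56 and -0.22 with the correction (adjusted p = 0.104 and 0.255). Hoxd4 was at 0.44 and 0.27 (limma adjusted p = 0.16 and 0.495) and the antisense RNA Hoxd3os1 at -0.10 in both fits.

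**Figure D3:**
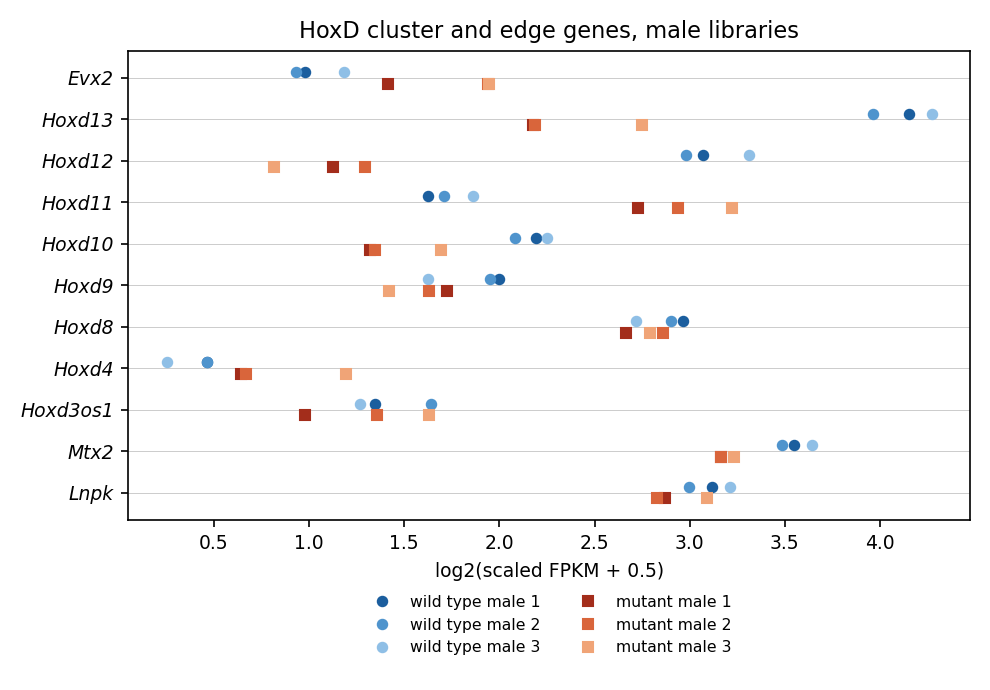
Level of 11 genes of the HoxD cluster and its edges, as log2(scaled FPKM + 0.5), in 3 wild type (blue circles) and 3 mutant (red squares) male libraries. Hoxd13, Hoxd12 and Hoxd10 have all mutant points left of the wild type points, Hoxd11 has them to the right, and Hoxd9, Hoxd8, Hoxd3os1 and Lnpk overlap.

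The GC-poor genes at the cluster's edges depended on the correction. Mtx2, a mitochondrial import gene with 41.9% GC, was at 11.2, 10.7 and 12 scaled FPKM in the wild type and at 8.47, 8.48 and 8.9 in the mutant males. Its log2 difference of -0.38 (SE 0.08, limma adjusted p = 0.00981) became 0.04 (SE 0.07, adjusted p = 0.774). Lnpk, a gene shaping the endoplasmic reticulum with 39.1% GC, went from -0.18 to 0.40 and was called in neither fit (limma adjusted p = 0.33 and 0.0956).

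The same held along the chromosome from Itga6 toward the cluster. Of 16 tested genes 6 (37.5%) were lower and 0 higher without the correction, beside 11.6% of all genes lower, at a median of -0.26. The FPKM as deposited gave 4 lower, beside 1229 of all genes tested, and scaling to the library sum 7, beside 1992. With the correction 0 were called by limma (9 at an unadjusted p under 0.05), at a median of 0.05. The share of all genes at an unadjusted p under 0.05 is not given for this contrast. Such counts in lists, here and below, thus have no background and are not read as a result. The median GC content of these genes was 46.4%, under the 50.9% of all genes. The transcription factor gene Sp3, with 39.4% GC, was at 32.1, 30.6 and 33.2 scaled FPKM in the wild type and at 19.7, 22.3 and 22.9 in the mutant males. It went from -0.55 (limma adjusted p = 0.00224) to -0.06 (adjusted p = 0.706). The count of 6 dropped to as few as 3 when 1 male library was left out. Of 9 tested posterior genes of the other Hox clusters 1, Hoxa11, was higher without the correction (0.55, limma adjusted p = 0.0225) and 0 with it (0.43, adjusted p = 0.102). That 11.1% higher is near the 8.64% of all genes, and with either other scaling 0 were called. The call of Hoxa11 was lost without any 1 of mutant males 1 and 3 and wild type males 1 and 3 (adjusted p up to 0.0891).

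The largest changes shared by both fits are given next. The 12 largest rises and 12 largest falls after the correction were taken from 208 higher and 241 lower genes. These genes were called alike in both fits with groups that did not overlap. Groups did not overlap in 43.5% of all genes tested, and separate groups were a condition here, not a result. The call with the correction held without any 1 male library for 11 of the 24, namely Hoxd13, Hoxd12, Ckm, Tnni2, Cox8b, Cnr1, Rtl1, H3c10, Ramp3, Taf15 and Anp32b. It was lost without at least 1 library for the other 13 (limma adjusted p up to 0.185).

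Of the 12 falls 5, Ckm, Myoz1, Tnni2, Tnnc2 and Tnnt3, were members of the skeletal muscle list. Ckm, the muscle creatine kinase gene (chromosome 7, 19144950 to 19156766, mm39), was at 42.8, 49.9 and 36.1 in wild type males 1 to 3 (scaled FPKM) and at 10.7, 9.76 and 9.33 in mutant males 1 to 3. It fell by 2.05 (SE 0.23, limma adjusted p = 0.00132) on the log2 scale, and by 2.22 with the correction (SE 0.22, adjusted p = 0.00142), although its transcripts are rich in GC (57.3%). Tnni2, a fast troponin subunit gene, was at 52.2, 64.8 and 51.9 against 23.7, 30.6 and 17.3. Cox8b, a muscle form of a respiratory chain subunit, was at 3.41, 4.25 and 2.96 against 1.1, 1.36 and 1.23. In these genes the correction made the falls slightly larger.

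A stretch of Ckm is shown beside one of Taf15, a GC-poor gene that rose, because both moved against the GC trend. Both are 90 coding bases from GENCODE M21 with G and C in capitals, at codons 43 to 72 of Ckm (57.8% GC) and codons 5 to 34 of Taf15 (45.6% GC).
Ckm: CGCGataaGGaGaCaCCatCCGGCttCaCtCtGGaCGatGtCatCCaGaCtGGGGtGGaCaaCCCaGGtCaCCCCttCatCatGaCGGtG
Taf15: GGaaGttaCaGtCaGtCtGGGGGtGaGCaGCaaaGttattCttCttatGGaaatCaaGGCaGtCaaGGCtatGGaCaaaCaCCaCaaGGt

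The skeletal muscle list as a whole had 11 of 28 tested members lower and 0 higher without the correction and 8 lower and 0 higher with it, beside 11.6% and 2.22% of all genes lower. Median differences were -0.44 and -0.51. The 8 were Ckm, Myoz1, Tnni2, Tnnc2, Tnnt3, Myh8, Acta1 and Atp2a1. Between 7 and 14 members were called when 1 male library was left out of the uncorrected fit. The summed level of the list was 1360, 1830 and 1970 scaled FPKM in the wild type and 985, 1420 and 890 in the mutant males, so mutant male 2 lay above wild type male 1 and the sums overlapped. None of the 30 members in the table was at 0 in all 6 libraries. In bulk tissue, fewer cells of a type and less RNA per cell cannot be told apart, and the amount of striated muscle kept at dissection was not tested.

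Other falls stood outside the skeletal muscle list. Cnr1, a cannabinoid receptor gene (chromosome 4, 33924632 to 33948831, mm39), was at 10, 7.98 and 8.93 scaled FPKM in the wild type and at 4.22, 3.85 and 4.08 in the mutant males. It changed by -1.05 (limma adjusted p = 0.00276), and by -1.16 with the correction (adjusted p = 0.00567). Arhgap36, an activator of hedgehog signalling on chromosome X, went from 9.35, 11.5 and 6.29 to 3.4, 2.53 and 1.76. The corrected call of Arhgap36 was lost without mutant male 2, wild type male 1 or wild type male 2 (limma adjusted p up to 0.0813). Atp1b4, also X-linked and expressed in muscle, went from 3.92, 5.19 and 4.39 to 1.25, 1.73 and 1.24. Tmsb15b1, a thymosin gene with near-identical neighbours on chromosome X, was at 4.72, 2.96 and 3.79 in the wild type and at 5.57e-05, 0.36 and 1.31 in the mutant males, and how the authors' counting split reads between the copies is uncertain.

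Among the rises, Rtl1 had little spread within either genotype. Rtl1, a paternally expressed imprinted gene (chromosome 12, 109555627 to 109566764, mm39), was at 2, 2.16 and 2.26 in wild type males 1 to 3 (scaled FPKM) and at 9.19, 9.36 and 8.15 in mutant males 1 to 3. Its log2 difference was 1.83 (SE 0.11, limma adjusted p = 4.61e-05), and 1.56 with the correction (SE 0.10, adjusted p = 5.63e-05). Rtl1 was the single member of 28 tested imprinted genes called in either fit (3.57%), beside 20.3% of all genes without the correction and 4.33% with it. At an unadjusted p under 0.05 by limma there were 7 members without and 2 with the correction. Leaving out 1 male library gave 1 to 2 calls without the correction, and either other scaling gave 1 higher and 1 lower. The strand setting of the counting was not stated, so reads of its antisense transcripts cannot be told apart here.

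Taf15 and Anp32b were also among the rises. Taf15 encodes an RNA-binding protein, and Anp32b encodes a nuclear chaperone. Taf15, with 46.1% GC, was at 3.99, 3.87 and 4.73 scaled FPKM in the wild type and at 8.75, 7.41 and 9.29 in the mutant males. Anp32b was at 9.56, 8.98 and 11.1 against 19.4, 20.8 and 25.7. Mutant male 3 was the highest library in both genes. The differences were 0.93 and 1.11 without and 1.15 and 1.08 with the correction for Taf15 and Anp32b (corrected limma adjusted p = 0.00142 and 0.00217 in this order).

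Ramp3, a receptor activity-modifying protein gene that shapes adrenomedullin and calcitonin-family receptors, rose from 3.89, 3.53 and 3.38 scaled FPKM to 14.9, 14.7 and 8.4. Mutant male 3 was the lowest mutant. H3c10, one of several histone H3 genes of near-identical coding sequence, rose from 7.23, 7.44 and 12.1 to 27.6, 36.6 and 36.1. The log2 differences were 1.64 and 1.87, and 1.52 and 1.56 with the correction (limma adjusted p = 0.00919 and 0.00139). How reads were split between H3 copies is uncertain.

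Of the other rises, Isg15, an interferon-stimulated gene, was at 0.93, 0.675 and 0.736 scaled FPKM in the wild type and at 2.76, 1.56 and 2.79 in the mutant males. Pnoc, the gene of the neuropeptide precursor prepronociceptin, was at 0.289, 0.67 and 0.905 against 2.12, 1.78 and 2.35. C1qtnf9, a secreted C1q family gene, was at 1.73, 1.34 and 1.38 against 3.78, 4.82 and 5.75. All 3 are genes of low level, with corrected differences of 1.12, 1.21 and 1.34 (limma adjusted p = 0.0133, 0.0336 and 0.0271). The corrected call was lost without 2 libraries for Isg15 and without 5 for each of the other two (adjusted p up to 0.0697, 0.124 and 0.104).

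Krt5, Wnt16 and Hba-a2 rose with more spread between libraries. Krt5, a keratin of basal epithelial cells, was at 17.4, 21.7 and 36.9 scaled FPKM in the wild type and at 80.4, 70 and 52.2 in the mutant males. Wnt16, a Wnt ligand gene, was at 1.67, 4.42 and 7.75 against 11.4, 16.8 and 13. In both genes wild type male 3 was the closest to the mutants. Krt5 changed by 1.45 and 1.24 and Wnt16 by 1.66 and 1.64 without and with the correction (corrected limma adjusted p = 0.0475 and 0.0376). Both corrected calls were lost without any 1 male library except wild type male 3 (adjusted p up to 0.185 and 0.124).

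Hba-a2, an alpha globin gene of red blood cells, was at 49, 60.2 and 18 scaled FPKM in the wild type and at 557, 591 and 1710 in the mutant males. Other red cell genes did not follow the same order of libraries. Alas2, the haem synthesis enzyme of red cells, was at 5.89, 8.07 and 63.3 against 40.3, 75.1 and 101, with wild type male 3 above mutant male 1. The summed red cell list was 720, 981 and 7240 in the wild type and 4230, 8140 and 11800 in the mutant males, so wild type male 3 overlapped the mutants. Hba-a2 was the single call among 8 tested members in either fit, its corrected call was lost without any 1 male library (limma adjusted p up to 0.111), and Hba-a1, its near-identical copy, had 1.89 and 1.76 (limma adjusted p = 0.134 and 0.232). Calls in the red cell list without the correction numbered 1 to 6 when 1 male library was left out, at medians of 1.28 to 3.04 against 1.94. The split of reads between the copies is uncertain, and the part of blood left in the tissue was not tested.

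**Figure D4:**
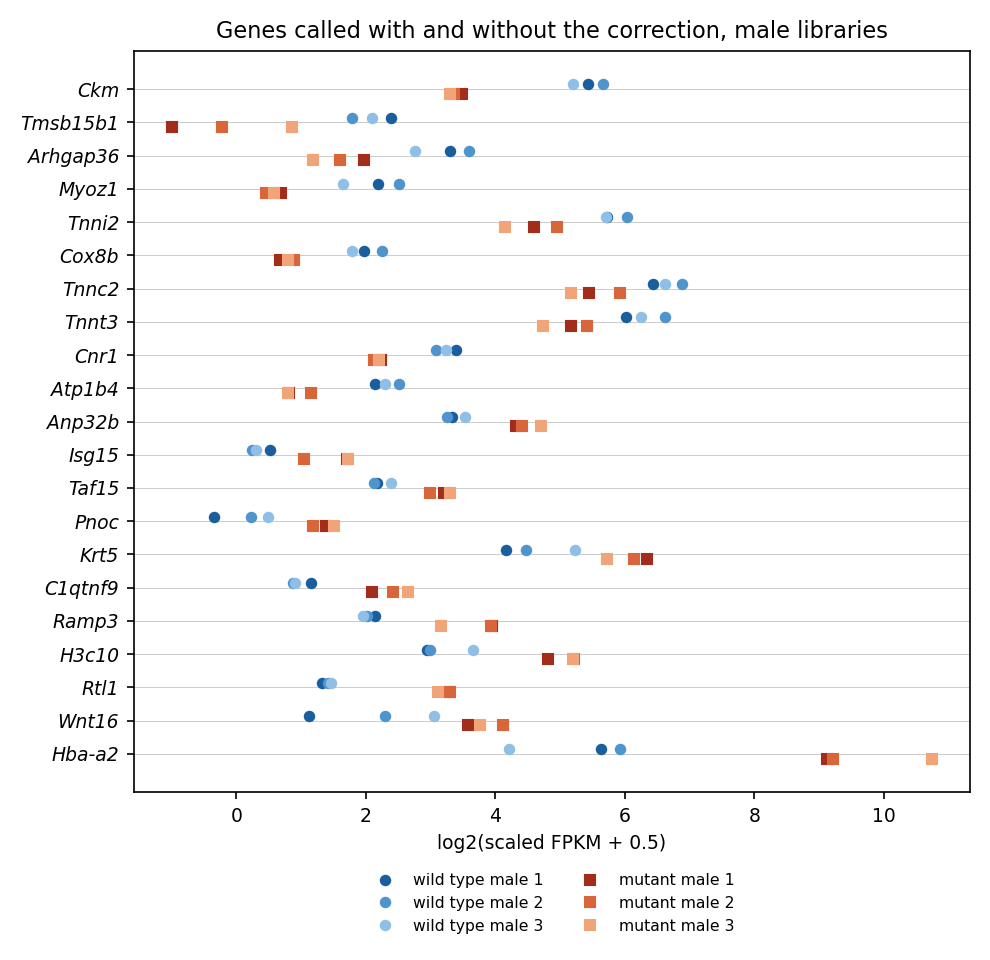
Level of 21 of the largest rises and falls called with and without the correction, HoxD genes left out, as log2(scaled FPKM + 0.5) in 3 wild type (blue circles) and 3 mutant (red squares) male libraries. Genes were chosen with groups that do not overlap. Points of Cnr1, Cox8b and Rtl1 are tight, and Hba-a2 spans 18 to 1710 scaled FPKM.

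Among signalling and tissue lists, counts are read beside the shares of all genes, 8.64% higher and 11.6% lower (20.3% in all) without the correction and 2.11% and 2.22% (4.33%) with it. Of 34 tested Wnt pathway genes 10 were higher and 1 was lower without the correction, and 2 higher and 0 lower with it. The FPKM as deposited gave 3 higher and 1 lower, beside 121 and 1229 of all 13904 genes tested. Scaling to the library sum gave 4 and 2, beside 444 and 1992. The 2 higher with the correction were Wnt16 and Tcf7l2, a transcription factor of the pathway, at 0.63 after the correction (limma adjusted p = 0.034). The median of the list went from 0.33 to 0.16, and its median GC content was 55%. Leaving out 1 male library gave 4 to 9 calls in place of 11.

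Of 16 hedgehog genes 2 (12.5%) were higher and 1 (6.25%) was lower without the correction, and 1 and 1 with it. Without it both directions together are near the 20.3% of all genes called. As deposited, 0 were higher and 1 lower, and with scaling to the library sum 2 and 1. Sufu, the inhibitor of the Gli factors, was at 5.57, 6.05 and 5.94 scaled FPKM in the wild type and 9.84, 10.1 and 9.74 in the mutant males, with differences of 0.71 and 0.57 (corrected limma adjusted p = 0.0344), and Arhgap36 was the lower gene. Gli2, a transcription factor of the pathway, was at 0.62 and 0.42 (limma adjusted p = 0.0204 and 0.192), and its uncorrected call was lost without any 1 of mutant males 1 and 3 and wild type males 1 and 2 (adjusted p up to 0.062). Of 33 FGF and BMP genes 5 (15.2%) were higher and 2 (6.06%) lower without, and 1 higher and 0 lower with the correction. Without it both directions together are near the 20.3% of all genes called, while the share higher is above the 8.64% of all genes. As deposited 0 were higher and 2 lower, and with scaling to the library sum 3 and 3. The one called with the correction was Id1, a BMP target, at 54.3, 58.6 and 62.4 against 95.1, 109 and 83.3. Of 26 Notch and retinoic acid genes, with a median GC content of 56.7%, 5 (19.2%) were higher and 0 lower without the correction. This stands beside 8.64% of all genes higher and 11.6% lower. With the correction 0 were called by limma (6 at an unadjusted p under 0.05). Their medians were 0.26 without and 0.09 with it. As deposited 0 were called, and with scaling to the library sum 2 were higher. Leaving out 1 male library gave 2 to 7 calls in place of 7 for the FGF and BMP list and 1 to 5 in place of 5 for the Notch and retinoic acid list.

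Genes of the prostate buds, the epithelial outgrowths of the sinus in males, had 5 of 15 members higher without and 2 higher with the correction, at medians of 0.45 and 0.23, beside 8.64% and 2.11% of all genes higher. With the FPKM as deposited 1 was higher and 1 lower, and with scaling to the library sum 4 and 0. The 2 higher with the correction were Krt5 and Sox9, an epithelial bud transcription factor. Sox9 was at 2.69, 2.84 and 3.88 in the wild type and 5.34, 5.82 and 5.11 in the mutant males (0.72 and 0.65, corrected limma adjusted p = 0.0358). The other 3, Cdh1, Bmp7 and Foxa1, were at 0.73, 0.55 and 0.23 with the correction (limma adjusted p = 0.107, 0.108 and 0.449). The uncorrected calls of Cdh1 and Bmp7 were lost without mutant male 1, mutant male 2 or wild type male 1, and that of Cdh1 also without wild type male 2 (adjusted p up to 0.0924 and 0.0625). Between 2 and 6 members were called when 1 male library was left out. Of 18 mesenchymal and androgen-related genes Fkbp5, a steroid-responsive chaperone gene, was higher in both fits (0.54 and 0.57, limma adjusted p = 0.00589 and 0.0181). Akr1c14, a steroid-metabolising enzyme gene with 40.4% GC, was lower only without the correction (-0.89 and -0.42, adjusted p = 0.0338 and 0.294), and that call was lost without any 1 of mutant males 1 and 2 and wild type males 1 and 2 (adjusted p up to 0.131).

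Lists of other cell types that the dissection can hold gave few calls. Of 14 urothelium, 13 squamous epithelium, 15 smooth muscle, 19 neuron and 4 adipose genes 0 were called in either fit by limma, while 2, 3, 0, 1 and 2 had an unadjusted p under 0.05 without the correction. Leaving out 1 male library gave at most 1 call in the urothelium and adipose lists and 2 in the squamous list. Vip, a neuropeptide of pelvic neurons, was at 30, 31.4 and 23.7 scaled FPKM in the wild type and at 12.9, 9.15 and 10 in the mutant males. It did not pass (-1.37, SE 0.80, limma adjusted p = 0.25). Its male groups did not overlap (SD 4.12 and 1.94), and the SE rests on a spread pooled over all 4 groups, females included. Of 14 macrophage genes 1, Ctss, was lower without and 0 with the correction. Of 16 endothelial genes Ramp3 was higher in both fits, and Aplnr and Tek, 2 receptors of endothelial cells, were lower without the correction (-1.24 and -0.96) and at -1.21 and -0.95 with it (limma adjusted p = 0.0544 and 0.0691). The uncorrected calls of Aplnr and Tek were lost without any 1 of mutant males 1 and 2 and wild type males 1 and 2 (adjusted p up to 0.0832 and 0.0999). Testis and adrenal genes summed to 0.563 to 1.19 scaled FPKM in the 6 libraries, and Cdx2 and Fabp2 of the intestine were at 0 in all of them.

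Small leucine-rich proteoglycans, matrix proteins with GC-poor transcripts (median 42.1%), moved toward 0 with the correction. Of 10 tested members Aspn, Epyc and Ogn were lower without it and 0 were called by limma with it (2 at an unadjusted p under 0.05), and the median went from -0.63 to -0.25. Ogn was at 88.4, 102 and 83.5 scaled FPKM in the wild type and at 35, 42.8 and 68 in the mutant males, with mutant male 3 nearest to the wild type. It went from -0.96 to -0.25 (limma adjusted p = 0.0172 and 0.495), and its uncorrected call was lost without any 1 of mutant males 1 and 2 and wild type males 1 and 2 (adjusted p up to 0.0724). Collagens, matrix genes rich in GC (median 55.4%), moved the other way, with 10 of 40 higher without and 1 with the correction, and medians of 0.33 and 0.13. With the FPKM as deposited 2 collagens were higher, and with scaling to the library sum 6. The one that remained with the correction was Col4a5, a basement membrane collagen on chromosome X, at 40, 38.8 and 45.2 against 78.4, 82.8 and 70.2 (0.89 and 0.78, corrected limma adjusted p = 0.00652).

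Cell division genes showed opposite directions within a list. Of 30 tested members 5 were higher and 4 were lower without the correction, and 0 were called with it. The higher ones, E2f1, Plk1, Foxm1, Aurka and Mki67, had values of 0.30 to 0.45, and the lower ones, Ccne2, Bub1, Kif11 and Ccna2, of -0.93 to -0.30. Plk1, a mitotic kinase gene with 56.3% GC, was at 0.42 (limma adjusted p = 0.00693) and Bub1, a spindle checkpoint gene with 39.8% GC, at -0.46 (adjusted p = 0.0111). With the correction they stood at 0.29 and 0.10 (adjusted p = 0.0791 and 0.512), and the median of the list was 0.18. The uncorrected call of Bub1 was lost without mutant male 1 (adjusted p = 0.052). With the correction 12 had an unadjusted p under 0.05 by limma, a count with no share of all genes to set beside it. Leaving out 1 male library gave 3 to 8 calls in place of 9. With the FPKM as deposited 0 of the 30 were higher and 3 lower, and with scaling to the library sum 1 and 5.

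Families defined by gene symbol are larger, and their counts are read beside the same shares and counts of all genes. Of 336 zinc finger Zfp genes (median GC 46.6%) 31 were higher and 82 lower without the correction, and 3 and 5 with it. The share higher, 9.23%, is near the 8.64% of all genes, and the split was 3 higher and 88 lower as deposited and 10 and 105 with scaling to the library sum. Of 53 Rab GTPase genes, which direct vesicle traffic, 2 were higher and 16 lower without, and 0 and 4 with it, namely Rab33a, Rab40b, Rab2a and Rab8b. Of 37 proteasome subunit genes 1 was higher and 13 lower without, and 1 and 0 with it. With the FPKM as deposited 0 proteasome genes were higher and 3 lower, and with scaling to the library sum 0 and 13. Of 37 complex I genes of the respiratory chain 0 were higher and 11 lower without, and 0 and 5 with the correction, at medians of -0.13 and -0.14, and 13.5% lower with the correction stands beside 2.22% of all genes. As deposited 7 were lower, and with scaling to the library sum 11. The 5 were Ndufb4, Ndufb1, Ndufa5, Ndufb6 and Ndufv1, at -0.60, -0.51, -0.44, -0.37 and -0.25 with the correction, and Ndufv1 was called only with it.

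Core and linker histone genes had a median of 0.37 without and 0.27 with the correction, at a median GC content of 57.9%. Of 57 tested members 6 were higher and 1 lower without it, and 4 and 1 with it. The 10.5% higher without the correction is near the 8.64% of all genes. With either other scaling 4 were higher and 1 lower. The 4 called with the correction were H3c10, H2ac13, H1f3 and H1f10, of which H1f3 was called only with the correction, and the lower one was H2bc1. Of 82 cytosolic ribosomal protein genes 7 were higher and 1 lower without, and 2 higher and 0 lower with the correction. Those 2 were Rpl28, at 169, 180 and 214 against 355, 368 and 299, and Rps16, at 49.4, 57.3 and 72.6 against 137, 139 and 105. The median of this family was 0.05 in the main scaling, -0.05 with scaling to the library sum and -0.10 with the FPKM as deposited, so no direction is given for it.

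**Figure D5:**
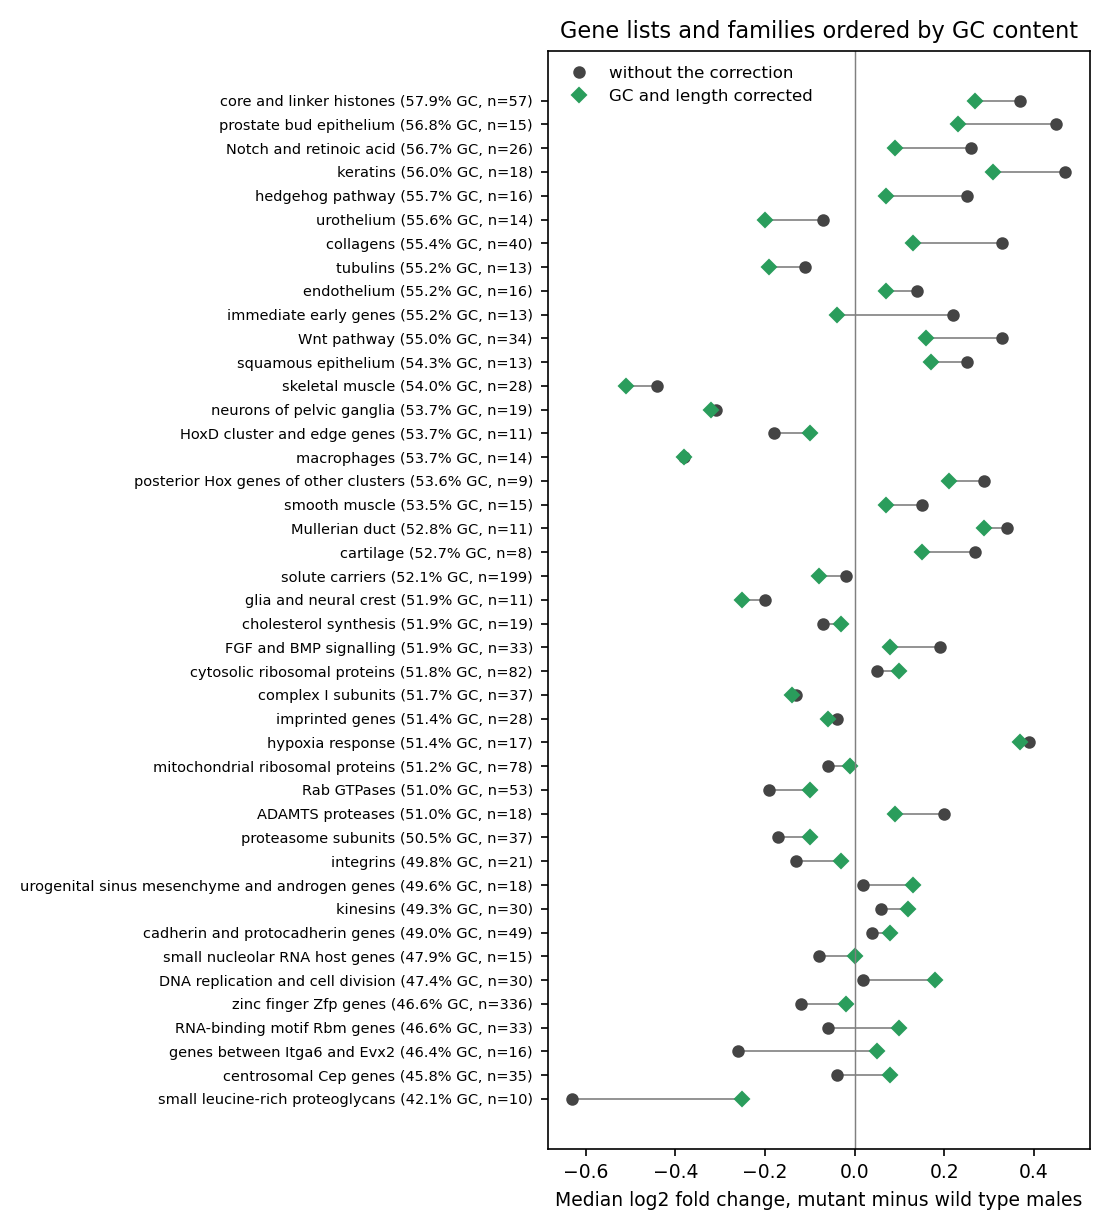
Median log2 fold change, mutant minus wild type males, of lists and families of genes with at least 8 tested members, ordered from high (top) to low (bottom) median GC content, without (black circles) and with (green diamonds) the correction. Small leucine-rich proteoglycans move from -0.63 to -0.25, skeletal muscle stays at -0.44 and -0.51, and the shift by the correction changes sign along the axis from leftward at high GC to rightward at low GC.

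Of 476 tested X-linked genes 19 were higher and 125 (26.3%) lower without the correction, beside the 11.6% lower of all genes, and 8 and 25 of 470 with it. The X-linked share of the lower calls was 7.83% without and 8.2% with the correction, against 3.42% of all genes. The median difference on the X went from -0.17 to -0.05, and its median GC content was 46.7%. On chromosome Y, Eif2s3y, a translation initiation factor gene with 37.5% GC, was at 15.6, 13.9 and 12.3 scaled FPKM in the wild type and at 5.37, 5.86 and 7.51 in the mutant males. It changed by -1.10 without and -0.39 with the correction (limma adjusted p = 0.00204 and 0.109). Uty and Ddx3y went from -1.06 and -0.80 to -0.49 and -0.06 (corrected adjusted p = 0.077 and 0.866), and Kdm5d from 0.09 to 0.39 (adjusted p = 0.731 and 0.146). All 4 Y-linked genes lie in the lowest GC bin, and Kdm5d did not follow the other 3.

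The difference of the mutant effect between males and females was called for 0 of 13904 genes by limma (0%), with 1225 (8.81%) at an unadjusted p under 0.05 and a smallest adjusted p of 0.0908. With the correction 0 were called, 1031 had an unadjusted p under 0.05 and the smallest adjusted p was 0.0769. Ckm had -2.05 in males and -0.45 in females, a difference of -1.60 (limma adjusted p = 0.475). Hoxd13, Hoxd12 and Hoxd11 had -1.76, -2.05 and 1.23 in males beside -1.91, -1.93 and 1.14 in females, with differences of 0.15, -0.11 and 0.09 (adjusted p = 0.879, 0.922 and 0.946). A p above the threshold does not show that the effects are alike, and no change is called particular to males here.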

How the data were processed

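RNA was measured in 12 libraries of urogenital sinus at stage E18.5, 3 for each genotype and sex. Per the labels' protocols, RNA with an integrity number above 9.5 was made into stranded libraries of ribosomal RNA-depleted total RNA and sequenced as single-end reads. The authors deposited FPKM values for 56495 genes. The submitters' processing notes name cutadapt 4.1, STAR 2.7.10a, Cufflinks 2.2.1, bedtools 2.30.0 and the builds mm39 and mm10. The annotation and strand setting of the counting are not given in the sources used here. Counts were not used here, so depth is known only relative to other libraries, from the commonest ratio of low FPKM values.

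From the deposited FPKM, libraries were scaled by their median ratio to the mean of the 12, over genes that reached 1 FPKM in every library, and genes with at least 1 FPKM in 3 libraries were tested. Values of log2(scaled FPKM + 0.5) were fitted with limma 3.58.1 (R 4.3.3, trend, 4 group means over 12 libraries), and p-values were Benjamini-Hochberg adjusted over all genes tested. Fold changes on this scale understate changes of low genes. The corrected fit subtracted, per library, a natural spline (4 degrees of freedom each) of GC content and log2 length, averaged over a gene's GENCODE M21 transcripts (GRCm38), matched by gene ID for 98.8% of the genes tested. Correlations and exact permutation tests used scipy 1.17.1. Coordinates are those of the deposited table, with 1 added to the start, and were taken as mm39 because only 2.84% of the gene ends equalled those of GRCm38. Both fits were also run on simulated libraries, each with a linear GC slope and no length trend. Such a simulation cannot show that the correction suits the real data.

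Named genes were the HoxD genes, the 12 largest rises and 12 largest falls called alike in both fits with groups that did not overlap and a group mean of at least 2 scaled FPKM, 5 genes from each extreme GC bin (of 10) called only without the correction, up to 4 members with the smallest p of each list, and the Y-linked genes and Xist; unnamed models, pseudogenes and short RNAs were left out. Some genes that this rule names are not reported here. Comparisons, lists and members were chosen with earlier results of these data known. Other pseudocounts, filters, scalings, GC measures, a male-only fit, a replicate block and leaving out each library were tried.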

Additional observations from a re-analysis of the deposited data

How the results depend on the processing

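Against 2820 calls (1202 higher, 1618 lower), correction for GC content alone left 721 (378 higher, 343 lower) and for GC content and length 595 (290 higher, 305 lower). The FPKM as deposited gave 1350 calls with 121 higher, and scaling to the library sum gave 444 higher. Without a filter on low values 760 were higher, the corrected counts were 1932 (898 higher, 1034 lower), and the GC slope difference was 0.15 in place of 0.34. The fit over the male libraries alone gave 3302 calls, and 875 with the correction, of which 457 were higher. The cause of these shifts was not tested.

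Leaving out 1 male library in turn gave 1240 to 2451 calls, 452 to 1073 higher and 729 to 1554 lower. With the correction it gave 60 to 580 calls, 34 to 305 higher and 25 to 275 lower. The difference between sexes had 0 calls, or 1 without wild type male 1 or 3, which was C1s1 both times (limma adjusted p = 0.0169 and 0.00385), a gene singled out after its values were seen. Its calls from leaving out a library thus ranged from 0 to 1.

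Direction turned for 2 named genes called without the correction, Mtx2 at 0.04 with GC and length corrected, and Bub1 at 0.03 with GC alone and 0.10 with GC and length. With the replicate number as a block, 1992 genes were called, 799 of them higher and 1193 lower, and the difference between sexes had 0 calls. The GC slope difference stayed at 0.34. Its paired exact permutation p was 0.25, the smallest that this paired test can give. With the block and the correction 38 were called, 18 higher and 20 lower. Same-numbered males correlated at 0.17, 0.08 and -0.04 in their deviations, so the numbers were not shown to pair the libraries. Lists with no member above the 5 FPKM filter have no value there. With no counts, the precision set by depth is unknown.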

Other observations

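Some members of the lists for the ducts beside the sinus and for cartilage were called without the correction for GC content and length and not with it. In bulk tissue these calls cannot be assigned to a duct or to cartilage. Gata3, a transcription factor gene of the Wolffian duct list, was at 12.1, 11.5 and 12.6 in wild type males 1 to 3 (scaled FPKM) and at 18.1, 17.4 and 15.8 in mutant males 1 to 3, without overlap. Its log2 differences were 0.48 and 0.39 without and with the correction (limma adjusted p = 0.0128 and 0.0929), and the uncorrected call was lost without mutant male 1 (adjusted p = 0.0568). Of 6 Wolffian and 11 Mullerian duct genes tested 3 each were higher without the correction, Wnt9b among both, and 0 with it by limma (3 each at an unadjusted p under 0.05). Of 8 cartilage genes 3, Col2a1, Col9a2 and Col9a3, were higher without and 0 with it (2 at an unadjusted p under 0.05 by limma). These counts stand beside 8.64% of all genes higher without the correction. With the FPKM as deposited 0 were called in the 3 lists, and with scaling to the library sum 1 each in the duct lists and 0 in the cartilage list. Leaving out 1 male library gave 0 to 2 calls in the Mullerian and cartilage lists and 0 to 3 in the Wolffian list.

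Values of 3 further genes follow. Jun, an immediate early transcription factor gene, was at 19.9, 18.8 and 21.6 scaled FPKM in the wild type and at 32, 32.5 and 34 in the mutant males, with differences of 0.70 and 0.47 without and with the correction (limma adjusted p = 0.00363 and 0.0415). It was the single gene of 13 in its list called in both fits. Of the 13, 0 were called with the FPKM as deposited and 1 with scaling to the library sum. Mrpl12, a mitochondrial ribosomal protein gene, was at 11.8, 13.8 and 12.4 against 24, 22.5 and 21.8 (0.82 and 0.71, adjusted p = 0.00776 and 0.0305), one of 78 genes of which 2 were higher and 9 lower without the correction and 2 and 2 with it. The other higher gene was Mrps27 (0.24 and 0.40, adjusted p = 0.0254 and 0.0156). With the FPKM as deposited 0 of the 78 were higher and 4 lower, and with scaling to the library sum 1 and 7. Idi1, an enzyme gene of cholesterol synthesis, was at 4.96, 5.04 and 5.82 against 1.3, 1.47 and 4.05, so mutant male 3 lay near the wild type. Its differences were -1.19 and -0.68 (adjusted p = 0.0165 and 0.146), and the uncorrected call was lost without mutant male 1 or 2 (adjusted p up to 0.0702). Its list had 2 of 19 genes higher and 2 lower without the correction and 0 called with it by limma (3 at an unadjusted p under 0.05). Mrpl12 and Mrps27 were singled out after their values were seen.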
